A study of Homo sapiens with 8 samples.

Results

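The 10 genes described here are markers of the epithelial and the mesenchymal state that were picked by symbol from the 16782 genes of the deposited table. They are VIM, CDH2, FN1, ZEB1, ZEB2 and SNAI2 on the mesenchymal side, and CDH1, EPCAM, KRT8 and KRT18 on the epithelial side. All 10 had a row in the table, and all 10 passed the filter on low values that left 15593 genes to be tested. RNA was taken from CAKI1 cells, an established human line from a metastasis of a clear cell renal carcinoma. All cells were serum starved for 24 h, and 4 samples were then given iron-loaded lipocalin-2 (hLcn-2) at 5 µg/mL for 24 h, while 4 controls were left unstimulated. The samples are numbered 1 to 4 in each group, so that each hLcn-2 sample has a control with the same number. The labels do not say whether the numbers stand for separate cultures, and p-values therefore measure the spread between these samples. The experiment rests on a single cell line at a single time point.

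Epithelial cells are held together by E-cadherin at adherens junctions and carry keratin filaments, whereas mesenchymal cells carry vimentin, express N-cadherin and deposit fibronectin. In an epithelial-mesenchymal transition, transcription factors of the SNAI, ZEB and TWIST families repress E-cadherin and other epithelial genes. Kidney tubules are themselves formed from mesenchyme, the proximal tubule normally carries N-cadherin, and clear cell renal carcinomas often hold vimentin and keratins in the same cell.

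Values are normalized counts on the scale of CPM (reads of a gene relative to the library total), from a kit that reads the 3′ end of each transcript. Since each transcript gives reads from its end only, levels are compared between genes without division by length. Between 1501563 and 13953090 reads were recovered per library, each read standing for a molecule because of unique molecular identifiers (UMI). A gene with 3 reads lay at 0.211 CPM in the deepest library and at 1.98 CPM in the shallowest. Both samples with number 3 stood apart in that mitochondrial transcripts took 12.7% and 13.8% of their values, against 7.39% to 8.87% in the other 6 samples. Of 18 markers of kidney and of clear cell renal carcinoma, 11 had a row in the table. PAX8, a transcription factor of the renal epithelium, was at 226 ± 22.4 CPM in controls against 223 ± 18.3 CPM after hLcn-2 (SD, n = 4 each). It was chosen as an example after its values were seen. Of 14 markers of blood, endothelial, liver, islet, pigment and muscle cells only CD14 and ALB had a row in the table, at a mean of 0.979 and 0.518 CPM in controls.

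Vimentin was by far the most abundant of the markers. VIM (chromosome 10 of GRCh38, 17228241 to 17237593, plus strand) stood at rank 34 of the table in controls, with 1664 ± 310 CPM (SD, n = 4). N-cadherin, CDH2 (chromosome 18, 27932879 to 28177946, minus strand), followed with 416 ± 75.7 CPM (SD, n = 4). Fibronectin, FN1 (chromosome 2, 215360440 to 215436073, minus strand), had 371 ± 121 CPM (SD, n = 4) and did not differ from CDH2 beyond the spread of the samples. The type I keratin gene KRT18 (chromosome 12, 52948871 to 52952906, plus strand) reached 96.9 ± 25.7 CPM (SD, n = 4). ZEB2 (chromosome 2, 144364364 to 144521057, minus strand) and ZEB1 (chromosome 10, 31318495 to 31529814, plus strand), both repressors of E-cadherin, lay at the same level, at 47.1 ± 4.22 and 46.6 ± 6.51 CPM (SD, n = 4). Below them came E-cadherin, CDH1 (chromosome 16, 68737292 to 68835537, plus strand), at 29.8 ± 21.7 CPM (SD, n = 4). KRT8 (chromosome 12, 52897187 to 52949954, minus strand), the type II partner with which KRT18 forms filaments, was at 29.5 ± 4.31 CPM (SD, n = 4). The adhesion molecule EPCAM (chromosome 2, 47345158 to 47387601, plus strand) was at 23.2 ± 2.49 CPM (SD, n = 4), and both KRT8 and EPCAM lay within the spread of CDH1. SNAI2 (chromosome 8, 48917598 to 48921740, minus strand), which encodes the repressor Slug, was the lowest with 2.45 ± 1.71 CPM (SD, n = 4). Untreated CAKI1 cells thus held RNA of both sides, with more reads of CDH2 than of CDH1 in all 4 controls.

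A sample held between 2376 and 27172 reads of VIM and between 80 and 290 of CDH1, but only between 1 and 58 of SNAI2. In the canonical transcripts of GENCODE 44, exons of other genes overlap the exons of VIM, CDH1, CDH2, ZEB2 and KRT18, in each case on the opposite strand. None of them reaches the last exon of any of the 10 genes, from which most of the reads of a 3′ kit come. KRT8 and KRT18 have processed pseudogenes with near-identical sequence, to which some of their reads could be assigned. KRT8P12 was the only KRT8 pseudogene in the table, with a mean of 0.893 CPM, and the 2 rows of KRT18 pseudogenes summed to a mean of 1.08 CPM. These sums came to 2.87% of the KRT8 value and to 1.14% of the KRT18 value. Reads that match a gene and its pseudogene equally well may be counted in neither row. The sums do not cover such reads and set no limit on them. The antisense genes VIM-AS1, ZEB1-AS1 and ZEB2-AS1 had means of 2.22, 3.07 and 0.653 CPM.

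**Figure D1:**
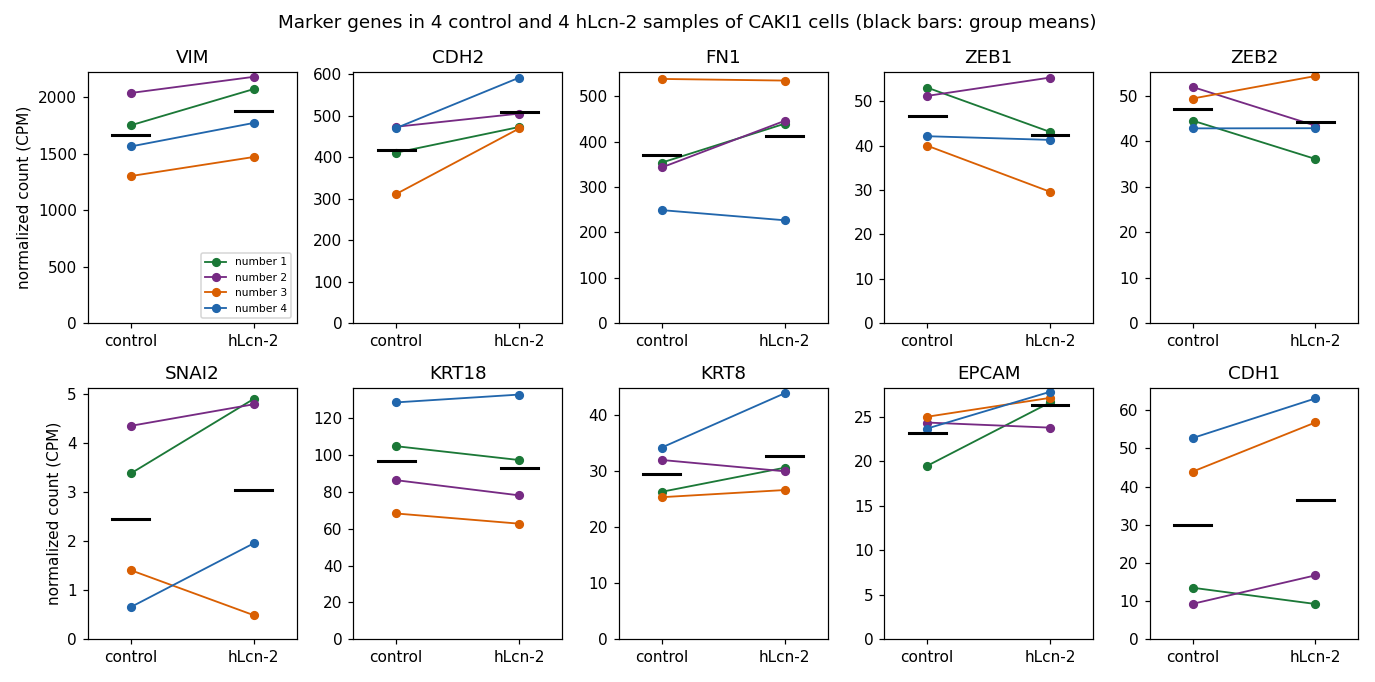
Normalized counts (CPM, linear axes from 0) of the 10 marker genes in control and hLcn-2 samples. Each coloured line joins the samples that share a number, and black bars are group means. CDH1 lies between 9.26 and 16.8 CPM in both samples of numbers 1 and 2 and between 43.9 and 63.1 CPM in those of numbers 3 and 4.

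The first question was whether these genes changed after hLcn-2. At an adjusted p-value threshold of 0.05, limma without the replicate block called 0 of the 10 genes, as it called 0% of all genes tested. At an unadjusted p-value under 0.05 it was also 0 of the 10, against 2.28% of all genes. The quasi-likelihood test of edgeR without the block likewise called 0 of them, and 0% of all genes tested. The replicate number was also fitted as a block, because same-numbered samples resembled each other. In limma with the block 0 of the 10 genes passed, against 0.282% of all genes (0.218% higher and 0.0641% lower after hLcn-2). With the block 0 passed in edgeR, against 1.49%, and 0 in DESeq2, against 1.11%. VIM and CDH2, 2 of 10 genes, had an unadjusted p-value under 0.05 in limma with the block, as had 12.2% of all genes, and in edgeR and DESeq2 with it. Of the 10 genes 0 separated the groups without overlap, which 1.88% of all genes did (0.891% higher and 0.988% lower after hLcn-2).

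CDH2 showed the largest difference between group means relative to its error. Its controls 1 to 4 had 411, 473, 311 and 470 CPM, and the hLcn-2 samples 473, 505, 469 and 591 CPM. Controls 2 and 4 lay among the hLcn-2 samples, and control 3 was the lowest of all 8. The log2 fold change of CDH2 was 0.30 (95% interval -0.04 to 0.64 without the block and 0.12 to 0.49 with it). With the block its adjusted p-value was 0.163 in limma and 0.0810 in edgeR, and in limma it was 0.9999 with no block. CDH2 was higher after hLcn-2 in 4 of 4 pairs, by 0.20, 0.09, 0.59 and 0.33 on the log2 scale.

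VIM had 1752, 2038, 1302 and 1565 CPM in controls 1 to 4, and 2073, 2181, 1471 and 1773 CPM in the hLcn-2 samples with these numbers. The groups overlapped, control 2 lying above hLcn-2 samples 3 and 4, and the order of the numbers was the same in both groups. The log2 fold change of VIM was 0.17 (95% interval -0.22 to 0.56 without the block and 0.02 to 0.33 with it), and it was higher in 4 of 4 pairs. With the block its adjusted p-value was 0.348 in limma and 0.224 in edgeR. VIM and CDH2 were the only marker genes with a higher value in all 4 pairs, 2 of 10 genes, a pattern that 9.93% of all genes showed, and 12.9% of those with a mean of at least 10 CPM. No marker gene was lower in all 4 pairs, as 10.9% of all genes were.

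For the E-cadherin repressors among the markers, the values gave no clear direction of change. ZEB1 had 53.1, 51.2, 40.0 and 42.1 CPM in controls and 43.1, 55.4, 29.6 and 41.3 CPM after hLcn-2, a log2 fold change of -0.16 (95% interval with the block -0.40 to 0.09). ZEB2 had 44.5, 51.9, 49.4 and 42.8 CPM in controls and 36.1, 43.4, 54.3 and 42.8 CPM after hLcn-2, a log2 fold change of -0.10 (95% interval with the block -0.34 to 0.13). The groups overlapped for both genes, and each was lower in some pairs and higher in others. SNAI2 had 3.38, 4.35, 1.41 and 0.658 CPM in controls and 4.90, 4.79, 0.494 and 1.96 CPM after hLcn-2. Its log2 fold change was 0.17 (95% interval with the block -0.41 to 0.75), and the value of control 4 and that of hLcn-2 sample 3 rested on 1 read each. Whether a change of the size seen in the other markers could be detected for SNAI2 at this depth was not tested.

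On the epithelial side, EPCAM had 19.5, 24.4, 25.0 and 23.7 CPM in controls and 26.6, 23.8, 27.2 and 27.8 CPM after hLcn-2. Its log2 fold change was 0.18 (95% interval with the block -0.09 to 0.45), and it was higher in 3 of 4 pairs. KRT8 had a log2 fold change of 0.13 (95% interval with the block -0.12 to 0.39) and was higher in 3 of 4 pairs. KRT18 had one of -0.08 (95% interval with the block -0.26 to 0.10) and was lower in 3 of 4 pairs. CDH1 had a log2 fold change of 0.23, with the widest interval among the 10 genes without the block (-1.16 to 1.62), which narrowed to -0.15 to 0.60 with it. FN1 had one of 0.14 (95% interval with the block -0.06 to 0.33) and was higher in 2 pairs and lower in 2. With the block, every interval given for the 10 genes lay within -0.41 and 0.75 on the log2 scale.

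**Figure D2:**
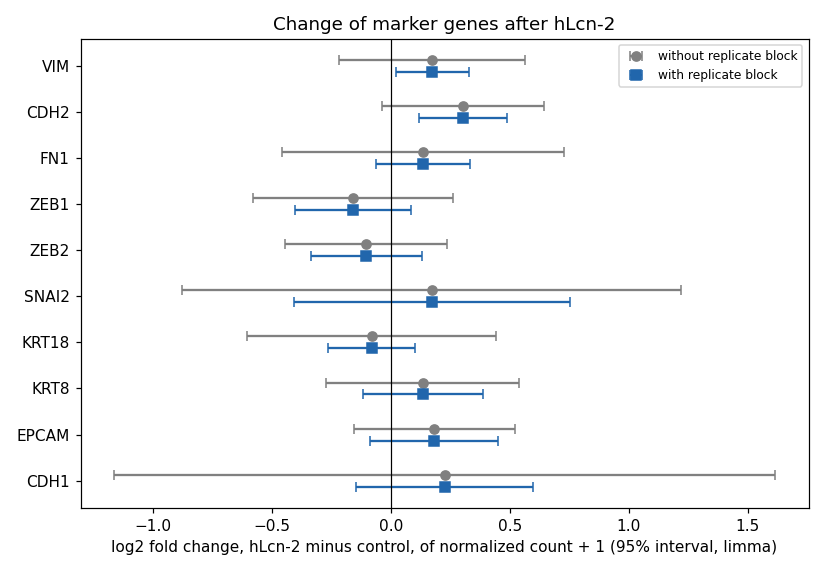
Log2 fold change (hLcn-2 minus control, of normalized count + 1) of each marker gene with its 95% interval from limma, without (grey) and with (blue) the replicate block. With the block, the intervals of VIM (0.02 to 0.33) and CDH2 (0.12 to 0.49) lie above 0 and the other 8 include it.

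Ratios within a sample do not depend on how the libraries are scaled. There were 16.7, 23.6, 19.1 and 12.2 VIM reads per KRT18 read in controls and 21.3, 27.9, 23.5 and 13.4 after hLcn-2. This ratio was higher in 4 of 4 pairs, by 0.25 ± 0.09 (SD, n = 4 pairs) on the log2 scale, while the groups overlapped. Without control 4 the log2 difference was 0.084 and without hLcn-2 sample 4 it was 0.47. The ratio of KRT8 to its partner KRT18 was 0.315 ± 0.065 in controls against 0.364 ± 0.050 after hLcn-2 (SD, n = 4 each). It was higher in 4 of 4 pairs, while the groups overlapped. The ratio of ZEB1 to ZEB2 was 0.994 ± 0.156 (SD, n = 4) and 0.995 ± 0.328 (SD, n = 4). The ratio of CDH2 to CDH1, a common index of the cadherin switch, was 24.3 ± 20.6 in controls against 24.7 ± 20.2 after hLcn-2 (SD, n = 4 each). Ratios were chosen from the known roles of the genes and were not tested.

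The CDH2 to CDH1 ratio differed far more between replicate numbers than between groups. In controls it was 30.4, 50.9, 7.09 and 8.92 for numbers 1 to 4, and after hLcn-2 it was 51.0, 30.1, 8.26 and 9.38. The samples of numbers 1 and 2 were thus high and those of numbers 3 and 4 low in both groups, and CDH1 carried this difference. CDH1 had 13.5, 9.30, 43.9 and 52.7 CPM in controls 1 to 4, and 9.26, 16.8, 56.8 and 63.1 CPM in hLcn-2 samples 1 to 4. The lowest sample of numbers 3 and 4 was 2.62 times the highest of numbers 1 and 2. Exact binomial intervals at 95%, which cover counting error only, ran from 38.6 to 49.7 CPM in control 3 and from 13.9 to 20.1 CPM in hLcn-2 sample 2, the nearest samples of either side. In pairs 1 to 4, the log2 difference of CDH1 between hLcn-2 and control was -0.50, 0.79, 0.36 and 0.26.

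The replicate number was then tested as a term of its own, beside hLcn-2, over all genes. This test was chosen after the CDH1 values had been seen, so its p-value for CDH1 is no separate support. CDH1 had the smallest p-value of the 10 marker genes (limma, adjusted p = 3e-05), and its mean over both groups was 11.4, 13.03, 50.3 and 57.9 CPM for numbers 1 to 4. Among the 9006 genes with a mean of at least 10 CPM, it ranked 37 by the span of these means on the log2 scale. In all, 7 of the 10 marker genes differed between the numbers (VIM, CDH1, CDH2, FN1, SNAI2, ZEB1 and KRT18). Of all genes tested, 27.4% did so, and of those with a mean of at least 10 CPM, 39.3%. The quasi-likelihood test of edgeR called 7 of the 10 as well, against 32.8% of all genes. Limma without the intensity trend called 2 of them, CDH1 and KRT18, against 8.3% of all genes. With TMM, with DESeq2 size factors or with a pseudocount of 0.1, limma called 5 of them (share of all genes not given here). CDH2 and ZEB1 no longer passed in these runs. Without the samples of number 3, 4 of the 10 passed, CDH1, FN1, SNAI2 and KRT18, against 5.85% of all genes. Without number 2, 4 passed (VIM, CDH1, FN1 and KRT18), against 17.5%. Without number 1 all 7 passed, against 26.1%, and without number 4 all of them but CDH2, against 33.3%.

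The marker genes did not share a single order of the numbers. VIM was highest in number 2 (2110 CPM, the mean of both groups) and lowest in number 3 (1387 CPM). ZEB1 followed the same order, with 53.3 CPM in number 2 and 34.8 CPM in number 3. SNAI2 was at 4.14 and 4.57 CPM in numbers 1 and 2 and at 0.952 and 1.31 CPM in numbers 3 and 4, the reverse of CDH1. Each of the 4 low SNAI2 values rested on between 1 and 9 reads, and the exact interval of control 4 ran up to 3.67 CPM.

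FN1 and KRT18 ran against each other. FN1 was highest in number 3, with 538 CPM in the control and 534 CPM after hLcn-2, and lowest in number 4, with 249 and 227 CPM. KRT18 was lowest in number 3, at 68.2 and 62.7 CPM, and highest in number 4, at 128 and 133 CPM. The replicate number took 91.6% of the sum of squares of FN1 and 97.8% of that of KRT18 on the log2 scale, and hLcn-2 took 2.41% and 1.2%. With 4 levels against 2 groups, the number takes the larger share on average even where nothing differs. Its share was largest for KRT18 among the 10 markers and smallest for EPCAM (26.1%, against 40.0% for hLcn-2). KRT8 was also lowest in number 3 (26.0 CPM) and highest in number 4 (39.1 CPM) but did not pass the test (limma, adjusted p = 0.0799). For EPCAM, the means of the numbers lay between 23.1 and 26.1 CPM (adjusted p = 0.771), and for ZEB2 between 40.3 and 51.8 CPM (adjusted p = 0.248).

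The depth of the libraries moved with the difference in CDH1. The samples of numbers 1 and 2 held 6972124 to 13953090 reads and those of numbers 3 and 4 held 1501563 to 5799151. The high mitochondrial share of number 3 moved with its low VIM, ZEB1 and KRT18 and its high FN1, but number 4, at 8.64% and 8.87%, had as much CDH1 as number 3. The part of depth and of the mitochondrial share in these differences was not tested. In RNA of bulk cultures, fewer cells with E-cadherin and less of its RNA in each cell cannot be told apart.

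**Figure D3:**
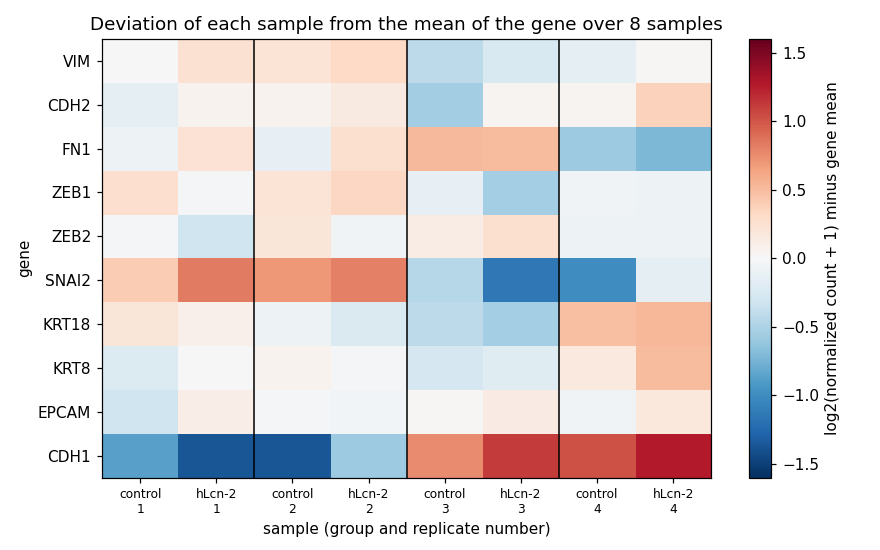
Deviation of each sample from the mean of the gene over 8 samples, in log2(normalized count + 1), with samples ordered by replicate number and black lines between the numbers. CDH1 is blue in all 4 samples of numbers 1 and 2 and red in all 4 of numbers 3 and 4, and SNAI2 shows the reverse.

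After subtraction of group means, CDH1 and SNAI2 had a Pearson correlation of -0.91 over the 8 samples, CDH1 and VIM one of -0.84, and VIM and ZEB1 one of 0.87. KRT8 and KRT18 had one of 0.83, and FN1 had -0.94 with KRT8 and -0.93 with KRT18. These values describe 8 samples, in pairs that share a number, and all genes of a sample share its library and depth. Among the 9005 other genes with a mean of at least 10 CPM, HOGA1 and GAK correlated most with CDH1 (both r = 0.99). Such values are the highest of 9005, and what this choice gives by itself was not tested. They also take no account of size, as GAK ran from 63.4 to 79.0 CPM and CDH1 from 9.26 to 63.1 CPM. CEP135 and MRPL1 correlated most with VIM (both r = 0.99), and EBP and NOSIP with KRT18 (r = 0.99 and 0.98). For the others, the highest r were those of TAF1B and SPATA33 with CDH2 (0.97 and 0.96), RDH10 and GREB1 with FN1 (0.99 and 0.98), STYK1 and CDKN1A with ZEB1 (0.98 and 0.98). They were those of ITPR2 and TMEM184C with ZEB2 (0.98 and 0.96), DTWD2 and ENSG00000230551 with EPCAM (0.95 and 0.89) and COPS4 and SSNA1 with KRT8 (0.97 and 0.96).

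E-cadherin repressors of the SNAI and ZEB families bind the DNA word CAGGTG, which reads CACCTG on the other strand. The RefSeq promoter windows of GRCh38.p14 run from 250 bases before to 50 bases after each start site. In them 6 of the marker genes were matched (VIM, CDH2, FN1, ZEB1, ZEB2 and KRT8), with 13 windows, 7 of them of ZEB1. CDH1, EPCAM, KRT18 and SNAI2 had no window, so their promoters were not searched. The word was present in 2 of the 13 windows, both of ZEB1, and in 20.6% of all 35116 windows. The 4 matches on chromosome 10, plus strand, are shown with flanks, with the word in capitals, named by their 30-base stretch. A match is a description of the letters and not a site of binding.
chr10:31318348-31318377: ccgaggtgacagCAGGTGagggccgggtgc
chr10:31318966-31318995: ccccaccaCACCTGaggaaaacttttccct
chr10:31319119-31319148: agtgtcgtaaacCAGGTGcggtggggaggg
chr10:31319236-31319265: tggcggatggcccCAGGTGtaagcgcagaa

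The wider lists of epithelial and mesenchymal genes were then examined. Of 32 genes of epithelial junctions 30 were tested, with 9 higher and 21 lower after hLcn-2 and a median log2 fold change of -0.051, against 7824 higher, 7769 lower and a median of 0.001 over all genes. Of these 30 genes, 0 passed in limma with the block (0.282% of all genes) or without it (0%). In all 4 pairs 7 were lower and 0 higher, against 10.9% and 9.93% of all genes. Desmoplakin, DSP, which anchors keratin filaments to desmosomes, had 33.2 ± 7.33 CPM in controls against 24.6 ± 2.36 CPM after hLcn-2 (SD, n = 4 each), with no overlap of the groups, as 1.88% of all genes had. Its log2 fold change was -0.40 (adjusted p = 0.219 in limma with the block). CLDN2, a claudin of the proximal tubule, had a log2 fold change of -0.31 and a range between replicate numbers from 13.03 to 75.6 CPM. Of the 30 genes, 15 differed between the numbers, against 27.4% of all genes and 39.3% of those with a mean of at least 10 CPM, the shares to which the counts for the lists that follow also compare.

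Of 32 mesenchymal genes 24 were tested, with 17 higher and 7 lower and a median log2 fold change of 0.10. With 1 sample left out, this median ran from -0.023 to 0.20. Of these 24 genes, 0 passed in limma with the block (0.282% of all genes) or without it (0%). In edgeR with the block 2 passed, LOX among them, against 1.49% of all genes. In all 4 pairs 6 were higher and 2 lower after hLcn-2, against 9.93% and 10.9% of all genes. LOX, which cross-links collagen, had 50.8 ± 15.8 CPM in controls against 67.3 ± 18.1 CPM after hLcn-2 (SD, n = 4 each). On the log2 scale this was 0.41 (with the block, adjusted p = 0.0900 in limma and 0.0340 in edgeR). S100A4, a calcium-binding protein of motile cells, went the other way, from 17.3 ± 1.13 to 11.8 ± 2.35 CPM (SD, n = 4 each) with no overlap (-0.54 on the log2 scale, limma with the block, adjusted p = 0.154). Between the replicate numbers 14 of the 24 genes differed (27.4% of all genes).

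Of 23 transcription factors of the transition 17 were tested, with 9 higher and 8 lower and a median log2 fold change of 0.019. Of these 17 genes, 0 passed in limma (0.282% of all genes) or in edgeR (1.49%) with the block. SNAI1, which encodes the repressor Snail, had 27.0, 19.1, 13.9 and 23.0 CPM in controls and 41.2, 24.8, 19.7 and 28.5 CPM after hLcn-2. All 4 pairs were higher after hLcn-2, and the log2 fold change was 0.43 (with the block, adjusted p = 0.162 in limma and 0.0545 in edgeR). TCF4 had a log2 fold change of -0.21 and FOSL1 one of -0.31 (adjusted p = 0.459 and 0.486 in limma with the block). Between the numbers 9 of the 17 differed (27.4% of all genes), FOSL1 from 6.19 CPM in number 3 to 28.1 CPM in number 2.

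Of 11 cadherins 8 were tested, of which 0 passed for hLcn-2 in limma (0.282% of all genes) or edgeR (1.49%) with the block. Between the numbers 6 of the 8 differed (27.4% of all genes). CDH1 and CDH2 are among these 8. CDH6, a cadherin of the proximal tubule, was lower after hLcn-2 in 4 of 4 pairs, with 102 ± 52.0 CPM in controls against 84.3 ± 47.7 CPM after hLcn-2 (SD, n = 4 each, adjusted p = 0.158 in limma with the block). It was highest in number 3 (161 CPM) and lowest in number 2 (40.2 CPM). Of 18 keratins 6 were tested and 0 passed for hLcn-2 (limma with the block, 0.282% of all genes). KRT10 at 162 CPM, KRT18 and KRT80 at 94.9 CPM were the most abundant of them in controls, while KRT7, chosen after its value was seen, had 1.05 CPM. KRT10 had a log2 fold change of 0.17 and KRT80 one of -0.19 (adjusted p = 0.465 and 0.477 in limma with the block). Of 18 epithelial regulators 7 were tested, 3 higher and 4 lower with a median of -0.022. Of these 7, 0 passed for hLcn-2 (limma with the block, 0.282% of all genes). KLF5 (log2 fold change -0.16), MAL2 (-0.16) and SPINT2 (-0.11) differed most among those with a mean of at least 10 CPM. Of the 11 kidney and carcinoma markers 2 were higher and 9 lower, with a median of -0.014. Of these 11, 0 passed for hLcn-2 (limma with the block, 0.282% of all genes). The largest change among those with a mean of at least 10 CPM was that of CDH6 (log2 fold change -0.32), which is also in this list. Carbonic anhydrase CA12 had the largest positive value at that level (log2 fold change 0.25, limma with the block, adjusted p = 0.223). NNMT, an enzyme abundant in clear cell renal carcinoma, had 216 CPM in controls and 211 CPM after hLcn-2.

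**Figure D4:**
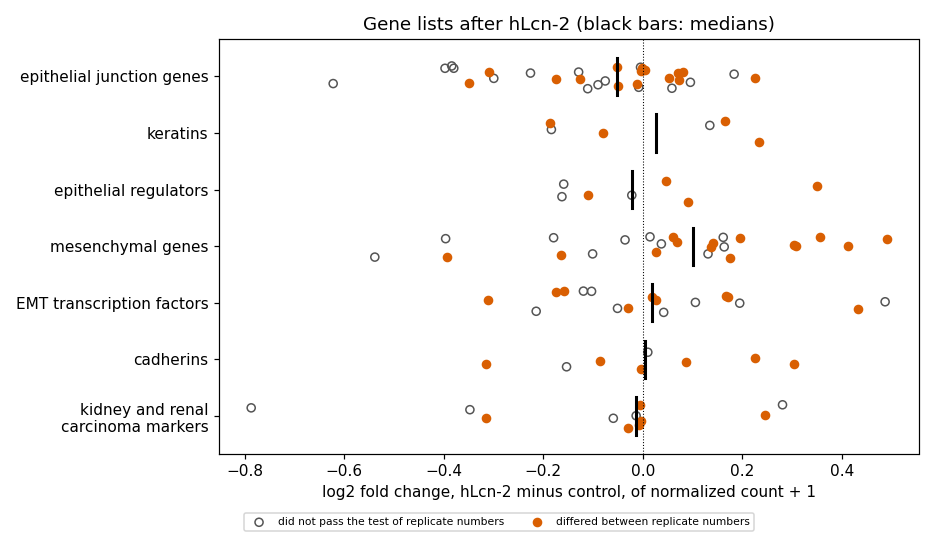
Log2 fold change (hLcn-2 minus control, of normalized count + 1) of the tested genes of 7 lists, with black bars at the medians. Filled points are genes that differed between replicate numbers (limma, adjusted p-value under 0.05), among them 15 of 30 junction genes and 14 of 24 mesenchymal genes.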

How the data were processed

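RNA of CAKI1 cells from 4 control and 4 hLcn-2 samples was sequenced as 3′ libraries with UMI. The authors used STAR with GRCh38, merged reads with the same UMI, counted genes in HTSeq and deposited a scaled signal, the normalized count of each gene on the scale of CPM. All 134256 values were whole multiples of the worth of 1 read in their column (tolerance 0.001 reads), which gave the reads per library (1501563 to 13953090). A value written with a decimal comma was read as a decimal point.

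Limma 3.58.1 in R 4.3.3 (two-sided, with an intensity trend, Benjamini-Hochberg adjustment over all genes tested) was run on log2(normalized count + 1) after leaving out genes that did not reach 1 CPM in 2 or more samples. This scale understates changes of low genes. Because normalized values were deposited, limma was the main test. edgeR 4.0.16 and DESeq2 1.42.0 were run on the recovered reads. The replicate number was fitted as a block, since same-numbered samples correlated in their deviations from group means (0.48, 0.59, 0.61 and 0.31 for numbers 1 to 4). The F test of the replicate number in the blocked model was chosen after seeing the data. The members and gene lists were chosen with earlier results of these data known. The rule for named genes took the 10 markers, list members past the threshold, the 3 members of each list with the largest absolute log2 fold change at a mean of at least 10 CPM, pseudogene and antisense rows, and the 2 genes most correlated with each marker at that level. Some genes that the rule names are not reported here. On simulated data with known changes, the fits with the block recovered nearly all changed genes, whereas those without it made no calls. Recovery of changes as small as those of the 10 markers was not tested, and neither was the choice of the block. Gene positions come from GENCODE 44, and whether reads were counted by strand is not given in the sources used here.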

Additional observations from a re-analysis of the deposited data

How the results depend on the processing

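Of the 10 marker genes, 0 passed for hLcn-2 under any alternative run. These were pseudocounts of 0.1 and 5, no low-value filter or one at a mean of 10 CPM (which removed SNAI2), TMM or DESeq2 size factors, no intensity trend, the replicate block, edgeR, DESeq2 (which gave SNAI2 no adjusted p with the block), and samples left out. The smallest adjusted p-value was 0.0810, for CDH2 in edgeR with the block. CDH2, VIM, EPCAM, ZEB1 and ZEB2 kept the sign of their log2 fold change in all of them, but with 1 sample left out it ranged from 0.17 (without control 3) to 0.37 for CDH2, from 0.063 (without control 3) to 0.28 (without hLcn-2 sample 3) for VIM, from 0.11 to 0.23 for EPCAM, from -0.30 (without hLcn-2 sample 2) to -0.0025 (without hLcn-2 sample 3) for ZEB1 and from -0.21 (without hLcn-2 sample 3) to -0.013 (without hLcn-2 sample 1) for ZEB2. The median of the junction list ran from -0.12 to -0.029. That of the mesenchymal list changed sign, from -0.023 (without hLcn-2 sample 1) to 0.20 (without hLcn-2 sample 4). So did the medians of the transcription factors (-0.15 to 0.10), the epithelial regulators (-0.11 to 0.034) and the keratins (-0.18 to 0.15). The medians of the cadherins (-0.14 to 0.23) and the kidney and carcinoma markers (-0.19 to 0.060) changed sign as well. With 1 sample left out, the log2 difference of the ratio ran from 0.084 to 0.47 for VIM to KRT18 and from 0.12 to 0.30 for KRT8 to KRT18. It crossed 0 for CDH2 to CDH1 (-0.38 to 0.56) and ZEB1 to ZEB2 (-0.20 to 0.20). The same held for FN1 to VIM (-0.30 to 0.27) and EPCAM to CDH1 (-0.54 to 0.40).

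Over the whole table, limma called 0 genes without the block. With the replicate block limma called 44, edgeR 233 and DESeq2 173 genes. In limma, the block with TMM gave 67 genes, with DESeq2 size factors 43, with a pseudocount of 0.1 8, with the stricter filter 85 and without the intensity trend 0, combinations chosen after seeing the data. Without pair 1, 2, 3 or 4 the block gave 13, 3, 0 and 54 genes. The cause was not tested.

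With 1 sample left out, the log2 fold change ranged from -0.19 to 0.72 for CDH1, from -0.037 to 0.40 for FN1, from -0.13 to 0.58 for SNAI2, from -0.27 to 0.087 for KRT18 and from -0.011 to 0.22 for KRT8. SNAI2 was at -0.049 with the block and without number 4.

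Of the marker genes, 4 to 7 differed between replicate numbers with a number left out (886 to 5040 of all genes), and 2 without the intensity trend (1294 of all genes). TMM, DESeq2 size factors and a pseudocount of 0.1 gave 5 each (share of all genes not given here). SNAI2 rests on at most 58 reads in a sample.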
